A study of Mus musculus with 40 samples.

Results

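The Ifitm genes encode interferon-induced transmembrane proteins, a family of small membrane proteins. Ifitm1, Ifitm2, Ifitm3 and Ifitm6 were the 4 genes described here, out of 54087 rows in the deposited count table, and they were taken by symbol. The family was selected on Ifitm6 levels, because Ifitm6 was higher in every mouse given anti-TGF-β + anti-PD-1 than in every mouse given anti-PD-1 alone. That contrast is therefore given as a description, without a test, for all 4 genes, and Ifitm6 is described without a test wherever either of those groups takes part.

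The samples were 40 CT26 tumors, 1 per mouse, in 8 groups of 5 mice. CT26 is a colon carcinoma line of BALB/c origin, and 1000000 cells were injected under the skin of BALB/c mice. Antibodies were given on days 6, 9 and 12 and tumors were taken on day 13. All mice carried the same tumor line and received antibody. The isotype control was a mouse IgG2a, so groups differed from it in antibody specificity and in part also in Fc format and in the number of antibodies given. The single treatments were anti-GARP:TGF-β1 WT (clone 58A2 as mouse IgG2a), anti-GARP:TGF-β1 FcD (the same clone in a format without Fcγ receptor binding), anti-TGF-β (clone 1D11) and anti-PD-1 in an Fc-silent format. Both formats, called WT and FcD from here on, and anti-TGF-β were each also combined with anti-PD-1. GARP is a surface protein that presents latent TGF-β1 on regulatory T cells, and PD-1 is an inhibitory receptor of T cells. Whole tumor fragments were sequenced, so fewer cells of a type and less RNA per cell cannot be told apart.

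Interferons bind their receptors and signal through JAK kinases and STAT factors, which act on interferon-stimulated response elements (ISRE) and gamma-activated sites (GAS) in promoters. Ifitm1, Ifitm2 and Ifitm3 are known interferon-stimulated genes whose products restrict the entry of enveloped viruses, Ifitm3 mainly at endosomes. Ifitm6 is a less studied member. TGF-β signals through SMAD factors, whose shortest known DNA site is the SMAD box.

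The 4 genes lie in 63088 bases of mouse chromosome 7 (GRCm38, GENCODE M21 annotation). Ifitm2 (ENSMUSG00000060591) lies at chr7:140954837-140955987 on the minus strand. Ifitm1 (ENSMUSG00000025491) lies at chr7:140967221-140969825 on the plus strand. Ifitm3 (ENSMUSG00000025492) lies at chr7:141009586-141010770 and Ifitm6 (ENSMUSG00000059108) at chr7:141015699-141017924, both on the minus strand. Coding sequences of Ifitm1, Ifitm2 and Ifitm3 were 80.9% to 82.1% identical to each other, whereas Ifitm6 was 66.3% to 70.4% identical to the other members. The 100 coding bases below are the stretch without gaps that had the most positions equal in all 4 members. Capitals mark the bases that differ from Ifitm3, and some capitals of Ifitm6 are shared with Ifitm1 or Ifitm2. They are coding bases 110 to 209 of Ifitm1, 173 to 272 of Ifitm2, 176 to 275 of Ifitm3 and 86 to 185 of Ifitm6.
Ifitm1: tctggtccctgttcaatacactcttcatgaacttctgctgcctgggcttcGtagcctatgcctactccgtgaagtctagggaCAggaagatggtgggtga
Ifitm2: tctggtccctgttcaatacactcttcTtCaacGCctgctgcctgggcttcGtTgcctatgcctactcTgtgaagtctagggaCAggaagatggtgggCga
Ifitm3: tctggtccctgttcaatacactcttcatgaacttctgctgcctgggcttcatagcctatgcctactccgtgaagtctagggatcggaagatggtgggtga
Ifitm6: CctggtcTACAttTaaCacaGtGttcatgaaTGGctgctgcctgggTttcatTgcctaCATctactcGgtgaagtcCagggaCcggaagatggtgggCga
Ifitm1 differed from Ifitm3 at 3 of these bases, Ifitm2 at 10 and Ifitm6 at 21, and 75 positions were equal in all 4. No 100-base stretch of an Ifitm1, Ifitm3 or Ifitm6 exon occurred in another annotated gene, but 34.9% of the Ifitm2 stretches did, mostly in the overlapping gene Gm45717, which has no count analysed here. How such reads were counted is not given in the sources used here.

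**Figure D1:**
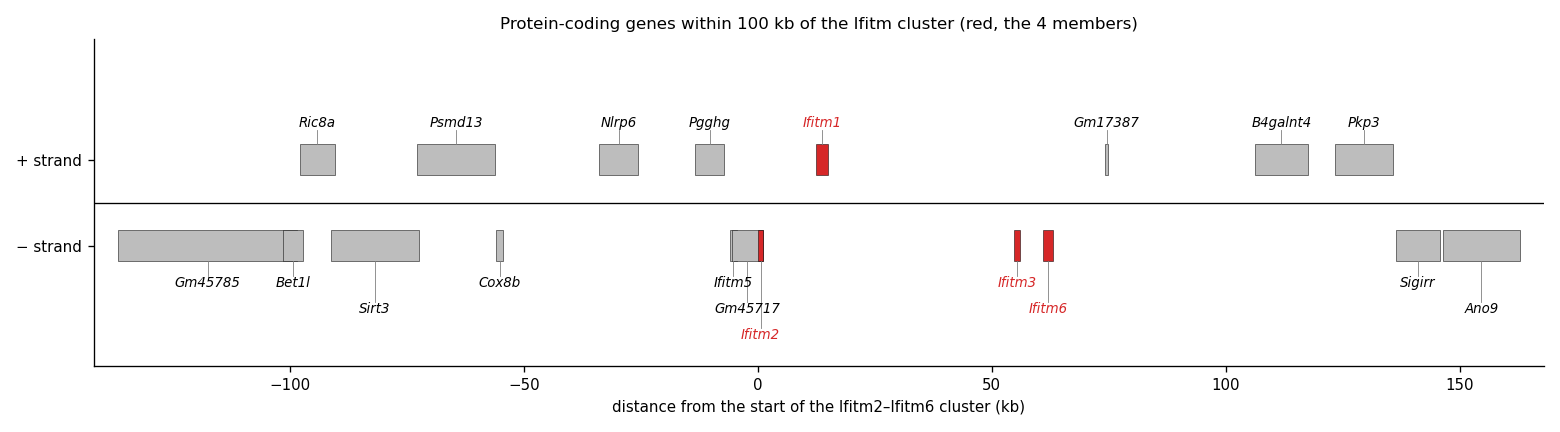
Map of the Ifitm cluster, with distance from the cluster's start in kilobases on the horizontal axis and protein-coding genes drawn to scale by strand. Ifitm2 and Ifitm1 lie at one end of the 63088 bases and Ifitm3 and Ifitm6 at the other.

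Promoters of the 4 genes were searched, on both strands, in RefSeq windows of 250 bases before to 50 bases after the start (GRCm38.p6). The ISRE core (GAAA, any 2 bases, then GAAA again) was in 3.44% of 32851 promoters, the GAS core TTCNNNGAA in 8.30% and the SMAD box CAGAC in 49.6%. The stretches that hold the ISRE and GAS matches follow, on the minus strand at chr7:140955988-140956017, chr7:141010715-141010744 and chr7:141016893-141016922, with the matches in capitals.
Ifitm2: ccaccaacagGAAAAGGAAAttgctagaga
Ifitm3: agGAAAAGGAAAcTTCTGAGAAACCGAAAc
Ifitm6: actccaccacccatatgaacTTCCTTGAAa
Ifitm2 held 1 ISRE core, Ifitm3 held 2 with a GAS core that overlaps the second, and the Ifitm6 window held a GAS core without an ISRE core. The Ifitm6 window lies inside the GENCODE gene, which extends to chr7:141017924 on the minus strand. The upstream end of that annotation was therefore not searched. CAGAC was found in the windows of Ifitm2, Ifitm3 and Ifitm6, and none of these letters were found in the window of Ifitm1.

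Each library held between 11931730 and 20680548 counted reads, with a median of 14030511. After the filter on low counts 14760 genes were kept, including all 4 members. Libraries 41 to 60 held Y-linked transcripts and libraries 61 to 80 held Xist, with 2 or 3 mice of every group in each set, and no member differed between the sets by more than 0.09 on the log2 scale (edgeR, adjusted p of 0.80 or more). In anti-PD-1 mouse 2 the summed skeletal muscle markers reached 192 CPM (counts scaled to a library of 1000000 by TMM-adjusted totals), against a group median of 7.83. With edgeR, 1 gene passed an adjusted p of 0.05 in any of the 15 group comparisons and 3 interactions, namely Isg15 in anti-TGF-β + anti-PD-1 against anti-PD-1 (0.00678% of genes tested). At an unadjusted p under 0.05, between 70 and 4361 genes were called per comparison, and DESeq2 called between 0 and 332 genes at an adjusted p of 0.05.

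Ifitm3 was among the most abundant transcripts of these tumors and Ifitm6 was a low one. Per kilobase of exon, Ifitm3 averaged 1171 CPM over the 40 mice, above 99.8% of 12761 genes with a length. Ifitm2 averaged 117 CPM per kilobase and Ifitm1 88.4, above 97.2% and 96.1% of genes. Ifitm6 averaged 4.81 CPM per kilobase, above 42.4% of genes, with 27 to 124 reads per mouse. The other family genes were near the detection limit. Ifitm5, known from bone-forming cells, had 1 to 12 reads per mouse, Ifitm7 had 0 or 1, and Ifitm10 had 1 to 35. Over all mice the coefficient of variation was 37.99% for Ifitm6 and 14.03% for Ifitm3, while counting error alone gives 12.7% and 0.936%.

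Ifitm6 was highest in the anti-TGF-β + anti-PD-1 tumors. Its levels in these 5 mice were 9.40, 5.71, 7.33, 6.26 and 8.35 CPM. In the anti-PD-1 mice they were 3.69, 3.17, 3.28, 3.69 and 3.75 CPM, and in the isotype control mice 3.65, 2.32, 3.96, 2.59 and 4.85 CPM. The lowest combination mouse, at 5.71 CPM, therefore stood next to the highest anti-PD-1 mouse, at 3.75 CPM, and no combination mouse overlapped the isotype group. Group means were 7.41 ± 1.503, 3.52 ± 0.27 and 3.47 ± 1.03 CPM (SD, n = 5 in each group here and below). The difference was 1.07 on the log2 scale against anti-PD-1 and 1.09 against isotype control. Of all genes tested, 0.732% had all combination mice above all anti-PD-1 mice and 1.73% had them above all isotype mice. The difference from anti-PD-1 was 1.09 within libraries 41 to 60 and 0.94 within libraries 61 to 80.

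In the remaining groups Ifitm6 was lower and its mice overlapped. The anti-TGF-β mice had 5.71, 6.86, 2.05, 4.98 and 4.53 CPM, which includes the lowest level of any mouse and 1 mouse, at 6.86 CPM, within the combination's range. The FcD + anti-PD-1 mice had 6.20, 3.62, 4.73, 4.52 and 4.31 CPM, and the WT + anti-PD-1 mice 5.10, 4.06, 3.54, 3.29 and 6.16 CPM. Without anti-PD-1, the WT mice had 3.82, 2.73, 3.66, 2.63 and 4.09 CPM and the FcD mice 3.40, 3.34, 3.11, 3.18 and 2.39 CPM. The FcD group had the lowest mean, 3.09 ± 0.41 CPM. In the order of group means only the steps from anti-TGF-β + anti-PD-1 down to anti-TGF-β (2.58 CPM) and from WT + anti-PD-1 down to anti-PD-1 (0.914 CPM) exceeded the pooled SD of the neighbours (1.65 and 0.864 CPM), and the ranges of all neighbouring groups overlapped.

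**Figure D2:**
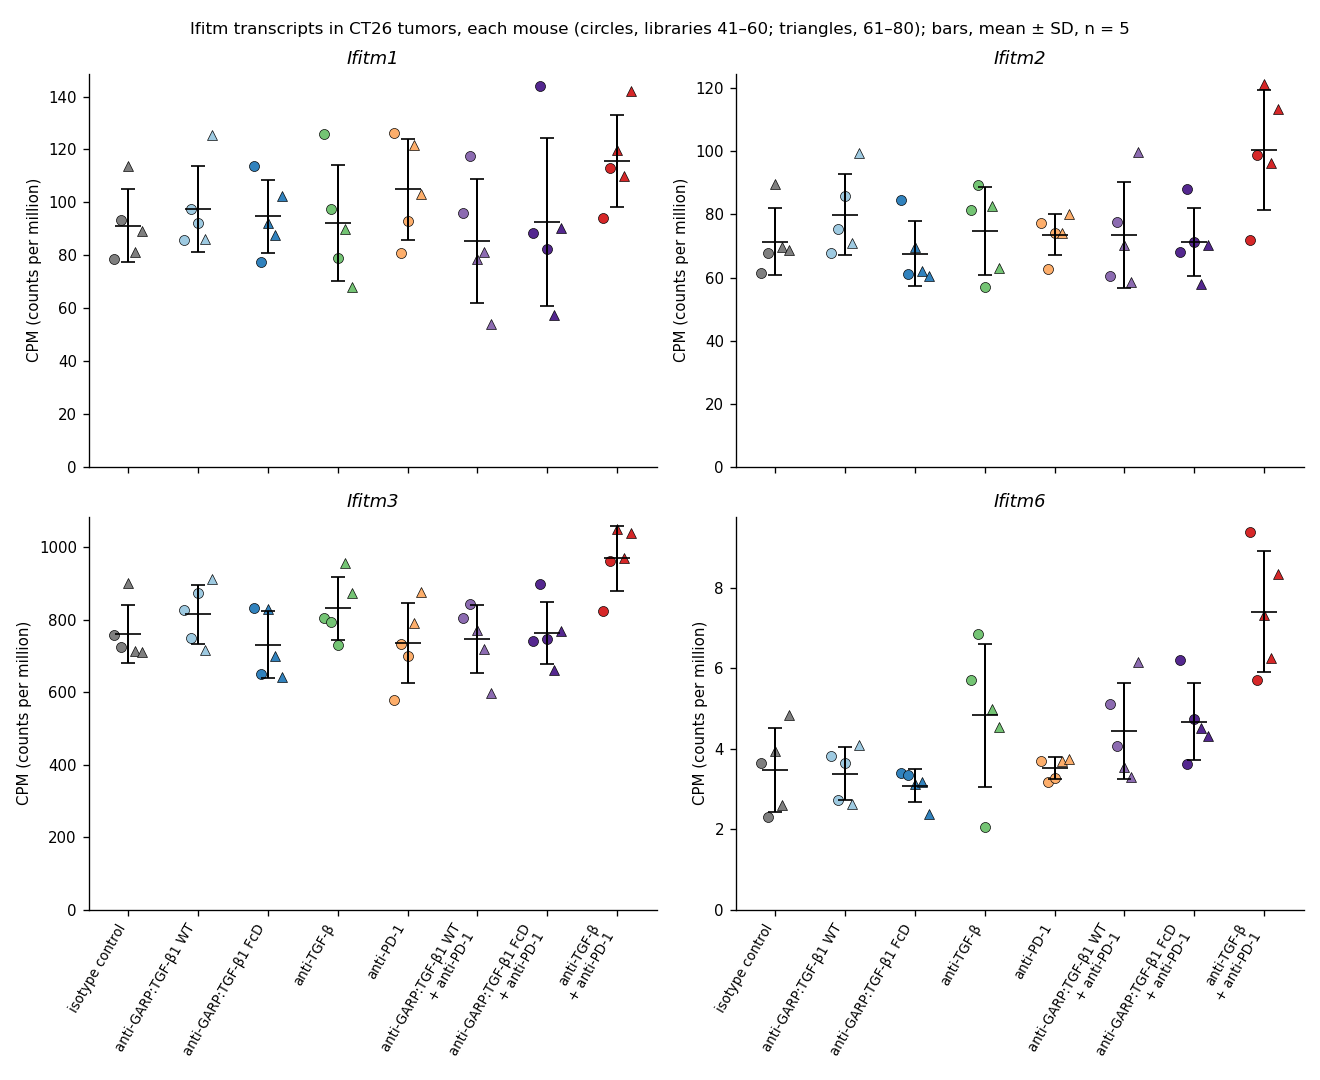
Level of each Ifitm gene in CPM by treatment group, with 1 point per mouse (circles for libraries 41 to 60, triangles for 61 to 80) and bars for the mean ± SD. All 5 anti-TGF-β + anti-PD-1 mice lie above all 5 anti-PD-1 mice for Ifitm6, and 4 of 5 do for Ifitm2 and Ifitm3.

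Ifitm3, the most abundant member, was also highest in the anti-TGF-β + anti-PD-1 group. Those mice had 823, 961, 1049.9, 970.5 and 1039.6 CPM. The isotype control mice had 757, 725, 901, 714 and 711 CPM, and the anti-PD-1 mice 578, 734, 699.8, 792 and 875 CPM. All combination mice but mouse 1 lay above every isotype and every anti-PD-1 mouse. Group means were 969 ± 90.9, 762 ± 80.0 and 736 ± 111 CPM, and the anti-TGF-β group, next in order, averaged 832 ± 86.8 CPM. The step from the combination to anti-TGF-β, 137 CPM, exceeded the pooled SD of 88.8 CPM.

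Ifitm2 was also highest in this group, with 71.8, 98.9, 121, 96.4 and 113 CPM in the anti-TGF-β + anti-PD-1 mice. The isotype control mice had 61.4, 67.8, 89.6, 69.6 and 68.6 CPM and the anti-PD-1 mice 77.3, 62.8, 74.0, 74.1 and 80.0 CPM. Again mouse 1 alone of the combination mice fell inside the range of the isotype and anti-PD-1 mice, but the highest mouse of WT (99.4 CPM) and of WT + anti-PD-1 (99.97 CPM) also lay above combination mice 2 and 4. Means were 100.4 ± 19.1, 71.4 ± 10.7 and 73.6 ± 6.57 CPM, and the WT group was next below the combination, at 79.9 ± 12.9 CPM. Ifitm1 overlapped more. Its levels were 94.0, 113, 119.8, 109.9 and 142 CPM in the combination, 78.4, 93.5, 114, 81.2 and 89.0 CPM in isotype control mice and 126, 80.8, 93.02, 122 and 103 CPM in anti-PD-1 mice. For Ifitm1 the difference to the next group never exceeded the pooled SD at any step of the order.

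Against isotype control, Ifitm2 and Ifitm3 had higher means in the anti-TGF-β + anti-PD-1 tumors, but neither passed the test across all genes. The log2 difference was 0.49 (SE 0.15) for Ifitm2, with an adjusted p of 0.127 by edgeR's quasi-likelihood test, and 4 of 5 mice lay above all isotype mice. For Ifitm3 it was 0.35 (SE 0.11), with an adjusted p of 0.133 and again 4 of 5 mice above. For Ifitm1 it was 0.35 (SE 0.19), with a 95% interval of -0.04 to 0.73 and an adjusted p of 0.296. Unadjusted p-values were 0.00202 for Ifitm2 and 0.00287 for Ifitm3, where 20.1% of all genes had an unadjusted p under 0.05 and 8.49% did so in the upward direction. Single mice decided the call: without isotype mouse 3 the edgeR adjusted p was 0.0381 for Ifitm2 and 0.0419 for Ifitm3, and without combination mouse 1 it was 0.0151 and 0.0205. Over 16 alternative fits the adjusted p ranged from 0.0150 to 0.375 for Ifitm2 and from 0.0205 to 0.375 for Ifitm3.

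Against anti-PD-1 alone, the contrast that chose the family, the log2 difference was 0.45 for Ifitm2, 0.40 for Ifitm3 and 0.14 for Ifitm1. Against anti-TGF-β alone it was 0.43 (SE 0.15) for Ifitm2, with an adjusted p of 0.5003 by edgeR, 0.22 (SE 0.11) for Ifitm3, also with an adjusted p of 0.5003, and 0.33 (SE 0.19) for Ifitm1, with an adjusted p of 0.508. In this comparison 9.84% of genes had an unadjusted p under 0.05, and Ifitm2 was 1 of them. Ifitm6 differed by 0.62, with 3 of 5 combination mice above all anti-TGF-β mice. These comparisons share the combination samples, so they are not independent of each other.

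Whether the combination differed from what the single treatments add up to was tested as an interaction. On the log2 scale the excess was 0.38 for Ifitm2 (95% interval -0.04 to 0.81), 0.27 for Ifitm3 (-0.04 to 0.58) and 0.13 for Ifitm1 (-0.41 to 0.67), with adjusted p of 0.959, 0.959 and 0.965 by edgeR. For Ifitm6, given without a test, it was 0.60. None of the 9 tested interactions, including those of both anti-GARP:TGF-β1 formats, had an adjusted p below 0.50.

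Among comparisons that did not involve the selecting groups, the clearest Ifitm6 difference was between anti-GARP:TGF-β1 FcD with and without anti-PD-1. All 5 mice of the combination, from 3.62 to 6.20 CPM, lay above all 5 FcD mice, from 2.39 to 3.40 CPM, a separation in that direction seen in 2.65% of genes. The log2 difference was 0.60 (SE 0.23), with an unadjusted p of 0.0124 and an adjusted p of 0.152 by edgeR, where 20.9% of genes had an unadjusted p under 0.05. Over 16 alternative fits the adjusted p ranged from 0.0671 to 0.381. For the WT format the same comparison gave 0.39 (SE 0.23; adjusted p 0.232). The FcD and WT combinations differed by 0.08 (95% interval -0.38 to 0.53), an interval that holds 0.

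Anti-TGF-β alone gave an Ifitm6 log2 difference of 0.47 (SE 0.23) from isotype control, with 3 mice above and 1 below all isotype mice. Its adjusted p was 1.00 by edgeR, and 2.32% of genes had an unadjusted p under 0.05 there. Against isotype control, Ifitm6 differed by 0.43 (adjusted p 0.328) in FcD + anti-PD-1 and by 0.35 (adjusted p 0.361) in WT + anti-PD-1, and by -0.04 and -0.17 in WT and FcD given alone. In all, 60 member values were tested by edgeR. At an adjusted p of 0.05, 0 were called by edgeR and 0 by DESeq2, while 5 had an unadjusted p under 0.05. Those 5 are named above, in comparisons where 2.32% to 20.9% of all genes had such a p, and over all comparisons that share ran from 0.474% to 29.5%, so the count is no result about the members. The other 46 group differences lay between -0.30 and 0.43.

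**Figure D3:**
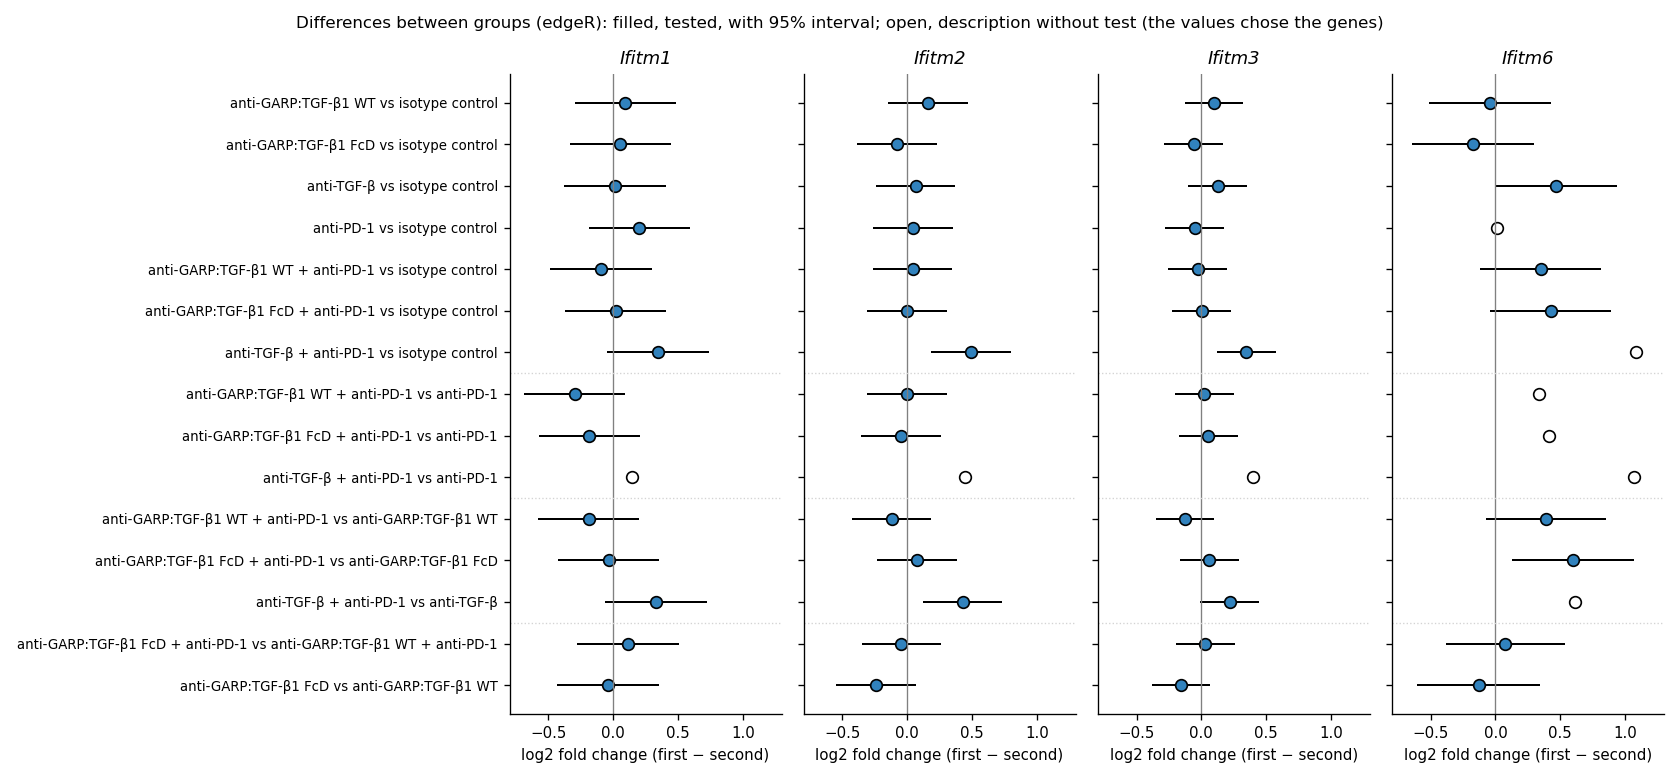
Log2 difference of each Ifitm gene between groups on the horizontal axis, with its 95% interval, for each comparison. Open circles are descriptions without a test, and the largest value is 1.09 for Ifitm6 in anti-TGF-β + anti-PD-1 against isotype control.

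Other interferon-stimulated genes also had higher means in the anti-TGF-β + anti-PD-1 tumors. Their lists were chosen with earlier results of these data known, and this group helped to choose the family. The counts below are therefore descriptions and no independent test of an interferon response. All 30 antiviral interferon-stimulated genes listed lay above the isotype control mean, with a median log2 difference of 0.49 against 0.02 over all genes. At an unadjusted p under 0.05, 21 of 30 were higher, 0 passed an adjusted p of 0.05 by edgeR, and 8.49% of all genes were higher at that unadjusted p. Isg15, a ubiquitin-like modifier, averaged 117 ± 13.2 CPM against 65.2 ± 11.4 (log2 difference 0.85), and Ifit3b, of the IFIT family of RNA-binding antiviral proteins, 19.9 ± 3.43 against 11.8 ± 0.879 (0.75). All 20 targets of interferon gamma also lay above, with 8 at an unadjusted p under 0.05 and a median of 0.62. Cxcl10, a T cell attractant, differed by 0.92 and Igtp, an interferon-inducible GTPase, by 0.90. Of 10 interferon ligands 1 was kept, Ifng, at 3.31 ± 0.915 against 1.19 ± 0.489 CPM, with a log2 difference of 1.46 and an adjusted p of 0.141 by edgeR. Of 14 receptors and signalling genes kept, 10 lay above and 6 were higher at an unadjusted p under 0.05, beside the 8.49% of all genes, among them Socs1, an inhibitor of JAK signalling, at 0.82 and Irf7, a transcription factor of the interferon response, at 0.58.

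The same lists are given for the contrast that chose the family as a description only. Against anti-PD-1, 30 of 30 antiviral genes lay above with a median of 0.53 (0.00 over all genes) and 20 of 20 interferon gamma targets with a median of 0.48. Isg15 averaged 117 ± 13.2 against 61.3 ± 14.1 CPM. Of 14 TGF-β target genes 13 lay below, with a median of -0.20. Against isotype control 8 of those 14 lay above and 6 below, with a median of 0.04, and Ltbp2, which encodes an extracellular matrix protein, had the smallest p, with a log2 difference of -0.54 (adjusted p 0.204 by edgeR).

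In FcD + anti-PD-1 against FcD alone, all 30 antiviral genes and all 20 interferon gamma targets lay above, with medians of 0.43 and 0.92. These lists too were chosen with earlier results of these data known. Higher values were common in this comparison. By edgeR, 3083 of 14760 genes had an unadjusted p under 0.05 and 1915 of those were higher in the combination. Ifitm1, Ifitm2 and Ifitm3 differed by -0.04, 0.07 and 0.06. The adjusted p of these 3 members lay between 0.756 and 0.924 by edgeR, and the 95% interval of Ifitm3 ran from -0.16 to 0.28. Markers of other cells also had higher means in that comparison. Neutrophil markers had a median log2 difference of 2.44, adipocyte markers 3.43 and macrophage markers 0.68, with 6 of 7, 8 of 8 and 6 of 10 higher at an unadjusted p under 0.05 (13.0% of all genes) and 0 past an adjusted p of 0.05 by edgeR. Their part in the Ifitm6 difference was not tested.

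Genes beside the cluster were examined within 100 kb. Of 15 neighbouring protein-coding genes 9 were kept by the filter. Against isotype control 7 lay above and 2 below in the anti-TGF-β + anti-PD-1 group, with a median of 0.08 against 0.02 over all genes. Psmd13, a proteasome subunit gene, differed by 0.38 (SE 0.10; adjusted p 0.106 by edgeR), which is as much as Ifitm3. The other neighbours had an unadjusted p above 0.05.

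Across the 40 mice each member had its own most similar genes, searched over 14756 genes on log2 CPM. Ifitm3 was most like Ifi35, Ube2l6, Bst2, Psma5 and Psme2, with Pearson r between 0.86 and 0.91. Ifi35 and Bst2 are antiviral interferon-stimulated genes, Ube2l6 encodes the conjugating enzyme for Isg15, and Psma5 and Psme2 encode proteasome proteins. After the group means were removed, r was still 0.86 for Ifi35 and 0.88 for Bst2. Ifi35 averaged 100.5 ± 18.1 CPM in anti-TGF-β + anti-PD-1, 76.3 ± 13.5 in anti-TGF-β, 66.1 ± 8.35 in isotype control and 61.0 ± 12.45 in anti-PD-1 mice. Ifitm2 was most like Svbp, Tmem50a, Arl6ip5, Lypla2 and Erp29, with r between 0.86 and 0.88. Ifitm1 was most like Ddah2, Hrsp12, Tspan11, Rgmb and Trim47, with r between 0.78 and 0.80. Ifitm6 had weaker likeness, with r between 0.69 and 0.71 for Shisa5, Marcksl1, Il2rg and Myd88. Its values are a description, since the search included the groups that chose Ifitm6. Once group means were removed, r was 0.54 for Shisa5 and 0.44 for Myd88, which encodes an adaptor of Toll-like receptor signalling.

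The members also varied together, though Ifitm6 did so least with Ifitm1. Over 40 mice, and in a family of 46 correlations, Ifitm2 and Ifitm3 had r of 0.62 (rho 0.61, adjusted permutation p 0.000613), Ifitm1 and Ifitm2 r of 0.55 (rho 0.64, adjusted permutation p 0.00192) and Ifitm1 and Ifitm3 r of 0.54 (rho 0.52, adjusted permutation p 0.00237). Without the 2 mice farthest from the median these were 0.49, 0.74 and 0.43. In the same order, r was 0.52, 0.72 and 0.31 over the 20 mice of libraries 41 to 60, and 0.65, 0.51 and 0.69 over the 20 of libraries 61 to 80. The adjusted permutation p was then 0.161, 0.0161 and 0.491 in the first set and 0.0168, 0.0632 and 0.0103 in the second. With group means removed r was 0.42, 0.49 and 0.52, with an adjusted permutation p of 0.0928, 0.0607 and 0.0607. With Ifitm6, r was 0.55 for Ifitm2, 0.45 for Ifitm3 and 0.17 for Ifitm1. Over the 30 mice outside the groups that chose Ifitm6 these were 0.40, 0.18 and -0.07, and none passed an adjusted permutation p of 0.05.

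**Figure D4:**
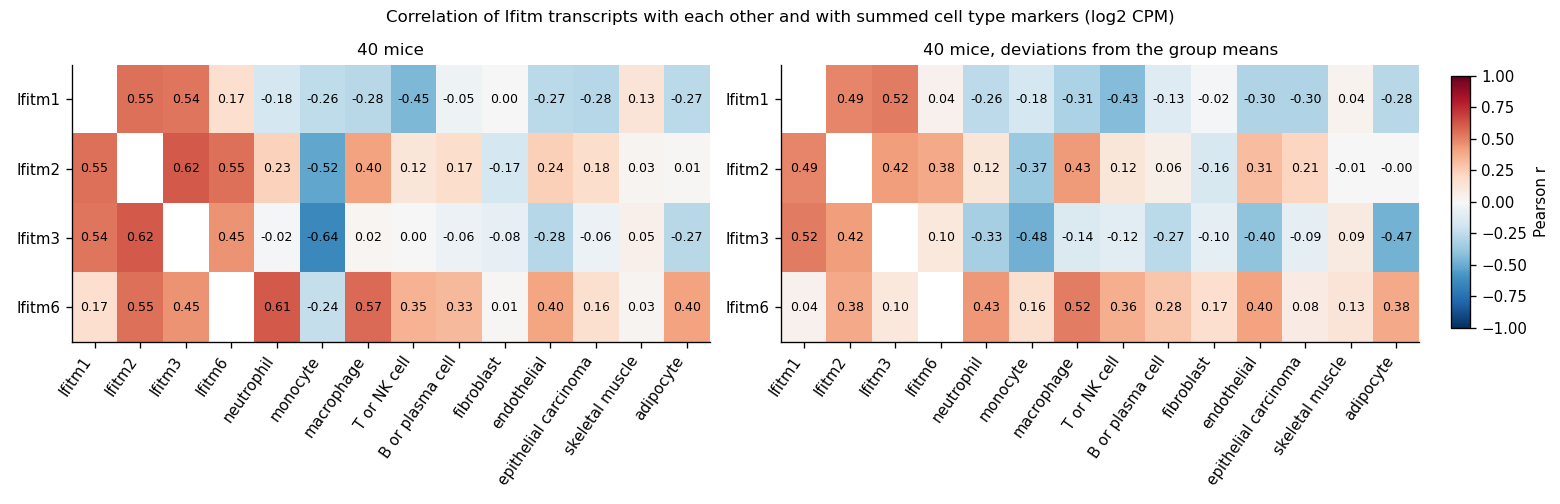
Pearson r over 40 mice, as colour and printed value, of each Ifitm gene with the other members and with the summed markers of each cell type, before (left) and after (right) the group means were removed. The Ifitm6 values for neutrophil markers (0.61) and macrophage markers (0.57) are the highest of its cell type values.

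Ifitm6 levels varied with the summed neutrophil and macrophage markers. The r of Ifitm6 with the summed neutrophil markers was 0.61 and with the summed macrophage markers 0.57 over 40 mice. Over the 30 mice outside the groups that chose the gene, r was 0.64 and 0.63 (adjusted permutation p 0.0041 for both). With group means removed r was 0.43 and 0.52, and 0 of the 46 correlations then passed an adjusted permutation p of 0.05. Csf3r held 44.8% of the neutrophil sum, and without it r was 0.56 over 40 mice and 0.28 with group means removed. Within libraries 41 to 60 r was 0.67 and 0.63, and within libraries 61 to 80 it was 0.61 and 0.51. The neutrophil sum was 37.7 to 148 CPM in anti-TGF-β + anti-PD-1 (median 84.0), 27.8 to 90.5 in anti-PD-1 (median 35.7) and 25.3 to 78.4 in isotype control mice (median 27.7). The macrophage sum was 2854 to 3832 CPM (median 3371), 1754 to 3589 (median 2242) and 1927 to 3011 (median 2424). Of 10 neutrophil markers 9 had a row, and all 10 macrophage markers had one. In anti-TGF-β + anti-PD-1 against isotype control, 7 of 7 kept neutrophil markers and 10 of 10 macrophage markers lay above, with medians of 1.51 and 0.37. By edgeR 0 passed an adjusted p of 0.05, while 3 of 7 and 1 of 10 had an unadjusted p under 0.05. Of all genes, 20.1% had such a p and 8.49% had it in the upward direction. The marker lists were chosen with earlier results of these data known. In FcD + anti-PD-1, where Ifitm6 averaged 4.68 CPM, the medians were 90.8 CPM for neutrophil and 3459 CPM for macrophage markers, both above those of anti-TGF-β + anti-PD-1. In WT + anti-PD-1, where Ifitm6 averaged 4.43 CPM, they were 72.7 and 2588 CPM. With the summed monocyte markers Ifitm6 had r of -0.24 over 40 mice, with 0.32 within libraries 41 to 60 and -0.67 within libraries 61 to 80, and r was 0.55 without Fn1, which holds 76.3% of that sum. These are descriptions, since they include the groups that chose Ifitm6, and over the 30 other mice r with the whole sum was -0.01 (adjusted permutation p 0.963). Over those 30 mice r was 0.57 with adipocyte markers (adjusted permutation p 0.0100), 0.46 with endothelial markers and 0.46 with T and NK cell markers (adjusted permutation p 0.0473 for both). The part of any cell type in the Ifitm6 difference was not tested.

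**Figure D5:**
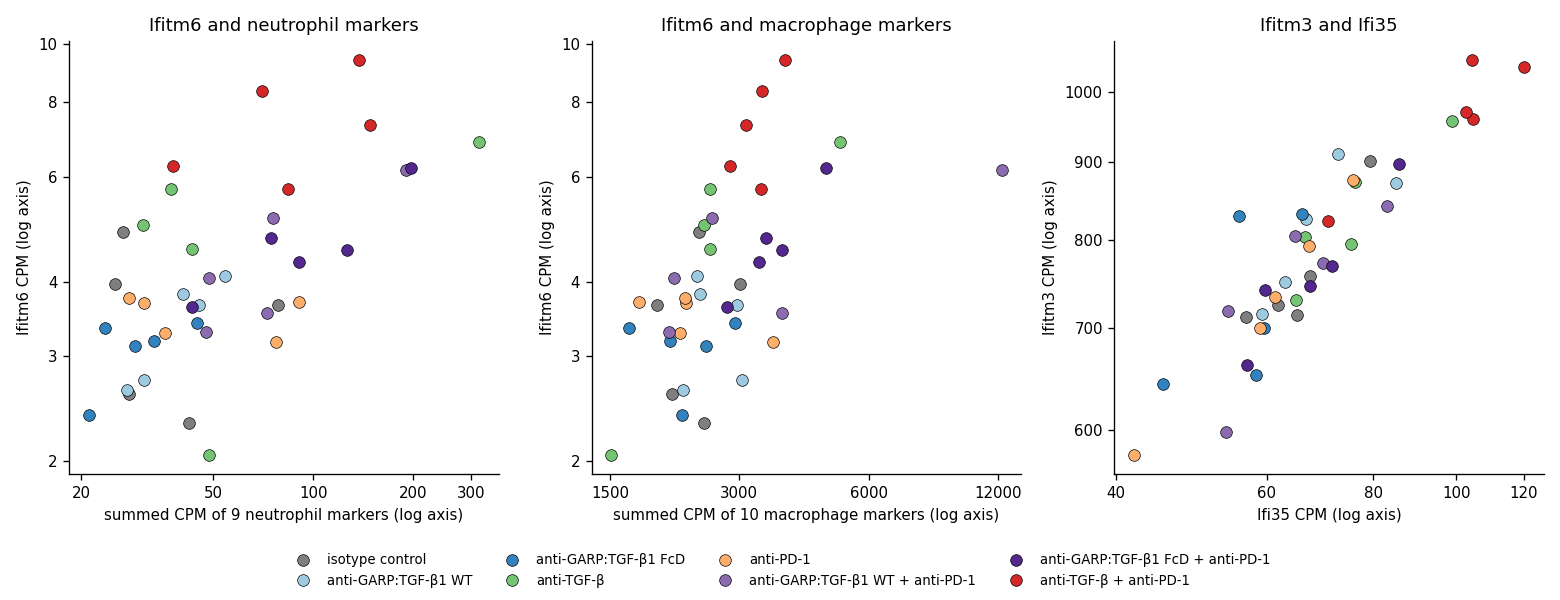
Each point is a mouse, coloured by group, with Ifitm6 against the summed neutrophil and macrophage markers and Ifitm3 against Ifi35, in CPM on log axes. Ifitm6 rises with both sums (r 0.61 and 0.57), and Ifitm3 follows Ifi35 (r 0.91).

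The remaining members had other marker relations. Ifitm1 was lower where T and NK cell markers were higher (r -0.45, rho -0.36, adjusted permutation p 0.0178), but the adjusted permutation p was 0.0759 for rho, 0.136 without the 2 farthest mice (r -0.33), 0.135 with group means removed (r -0.43) and 0.422 within libraries 41 to 60 (r -0.34). Within libraries 61 to 80 this r was -0.56. Ifitm2 had r of 0.40 (rho 0.39, adjusted permutation p 0.0389, and 0.0534 for rho) with macrophage markers. With skeletal muscle markers rho and r parted. For Ifitm1 rho was 0.55 (adjusted permutation p 0.00340) and r 0.13 (0.578), and for Ifitm2 rho was 0.43 (0.0259) and r 0.03 (0.993). The muscle sum was low, with group medians of 4.09 to 7.83 CPM, but reached 192 CPM in anti-PD-1 mouse 2. Within libraries 41 to 60 r was -0.01 for Ifitm1 and -0.0006 for Ifitm2. Within libraries 61 to 80 it was 0.57 and 0.42. Ifitm3 and Ifitm2 had r of -0.64 and -0.52 with the summed monocyte markers, but Fn1, which encodes fibronectin and is also made by other cells, held 76.3% of that sum. Without Fn1 r was -0.10 for Ifitm3 and 0.22 for Ifitm2. With group means removed, r was -0.48 and -0.37 with Fn1 and -0.40 and 0.15 without it.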

How the data were processed

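RNA of 40 CT26 tumor fragments was measured by RNA-seq with a stranded mRNA library kit. Per the labels and methods, the authors aligned reads to GRCm38 with STAR 2.5.3a and counted reads per gene with HTSeq 0.9.1, using SAMtools 1.6. The annotation release and the HTSeq strand setting are not given in the sources used here. The deposited values are raw counts per gene, and the authors' own normalization with DESeq2 was not used here.

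Groups came from the sample labels, and mouse numbers follow accession order. The 4 genes and all gene lists were chosen with earlier results of these data known. Counts were filtered with filterByExpr, scaled by TMM and fitted over all 8 groups with edgeR 4.0.16 (quasi-likelihood test, R 4.3.3), with Benjamini-Hochberg adjustment over 14760 genes and a threshold of 0.05. Named genes were the 4 members in every comparison, the other family genes, the 5 most similar genes of each member (1 of them is not reported here), neighbours within 100 kb, the 2 genes of each list with the smallest p, and any called gene where 5 or fewer were called. Correlations used log2 CPM with a prior count of 2 and 100000 permutations (scipy 1.17.1), two-sided. Alternatives were DESeq2 1.42.0 size factors and Wald test, no filter, the library set as covariate, only the groups compared, and leaving out mice. On simulated counts for WT + anti-PD-1 against isotype control over 14760 genes, edgeR recovered 72% of genes changed by log2 of 1 and 92% of those changed by log2 of 2, with 5 false calls. Smaller changes, such as the tested member differences, were not simulated, so these shares do not apply to them. Replicates differed by more than sampling noise (chi-square per degree of freedom of at least 5.85 over 80 pairs), so no library was counted as a duplicate. The labels name separate mice, so p-values measure the spread between mice. With 27 to 124 reads per mouse, counting error alone gives Ifitm6 a coefficient of variation of 12.7%.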

Additional observations from a re-analysis of the deposited data

Results flagged for a closer look

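Among 32 sets of 5 mice (4 genes in 8 groups), 2 held a mouse far from the others, where chance gives about 1 in 20. These were Ifitm3 in isotype mouse 3, at 901 CPM, and Ifitm6 in anti-GARP:TGF-β1 FcD mouse 5, at 2.39 CPM. Isotype mouse 3 is 1 of the mice whose removal brought Ifitm2 and Ifitm3 past the threshold in anti-TGF-β + anti-PD-1 against isotype control.

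In 8 of 60 member differences, every mouse of the first group lay on one side of the second group's mean within libraries 41 to 60 and on the other side within libraries 61 to 80. The difference between the sets, on the log2 scale, was 0.73 for Ifitm1 in WT + anti-PD-1 against isotype control and 0.78 against WT alone. For Ifitm2 it was 0.46 in FcD + anti-PD-1 against isotype control. For Ifitm3 it was -0.26 in anti-PD-1 and 0.21 in FcD + anti-PD-1 against isotype control, and 0.57 in WT + anti-PD-1 and 0.47 in FcD + anti-PD-1 against anti-PD-1. For Ifitm6 it was 0.55 in FcD against isotype control. An edgeR test of these differences between the sets, chosen after seeing the data, called 0 genes at an adjusted p of 0.05, and the smallest unadjusted p of a member was 0.0111 (adjusted 0.494), for Ifitm3 in WT + anti-PD-1 against anti-PD-1. DESeq2 was not run on it.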

How the results depend on the processing

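Most recomputed values were counted as unchanged. Of 432 log2 differences of members recomputed with other settings, 421 were unchanged, 9 changed sign and 2 passed the threshold. Of 840 recomputed without 1 mouse, 770 were unchanged, 66 changed sign and 4 passed. For the 60 tested differences, unchanged means the same sign and the same side of the threshold. For the 12 given as description it means a shift below the SD between mice, and a change of sign was not counted. The sign changed under some alternative for 28 of the 60 tested member differences. All 28 were smaller than their SE in the reported fit, between -0.09 and 0.11, and their signs are not to be read as a direction. Among the descriptions, the Ifitm6 difference of anti-PD-1 from isotype control ran from -0.097 to 0.17 when 1 mouse was left out. DESeq2 size factors moved no member difference by more than 0.013. Numbers of genes called across the table depended on the fit and on single mice, and the cause was not tested.

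With the DESeq2 Wald test the number of genes called was 1 in WT against isotype control, 1 in anti-TGF-β against isotype control, 1 in anti-PD-1 against isotype control, 14 in FcD + anti-PD-1 against isotype control, 139 in anti-TGF-β + anti-PD-1 against isotype control, 78 in anti-TGF-β + anti-PD-1 against anti-PD-1, 332 in WT + anti-PD-1 against WT, 174 in FcD + anti-PD-1 against FcD, 1 in anti-TGF-β + anti-PD-1 against anti-TGF-β, 1 in the WT by anti-PD-1 interaction and 2 in the anti-TGF-β by anti-PD-1 interaction. Without anti-PD-1 mouse 2 and anti-TGF-β + anti-PD-1 mouse 1 the number of genes called was 6 in WT + anti-PD-1 against isotype control, 2051 in anti-TGF-β + anti-PD-1 against isotype control, 963 in WT + anti-PD-1 against anti-PD-1, 566 in anti-TGF-β + anti-PD-1 against anti-PD-1, 522 in WT + anti-PD-1 against WT, 4 in FcD + anti-PD-1 against FcD and 1 in the anti-TGF-β by anti-PD-1 interaction. With the library set as covariate the number of genes called was 17 in FcD + anti-PD-1 against isotype control and 4 in FcD + anti-PD-1 against FcD. With only the groups compared in the fit the number of genes called was 177 in FcD + anti-PD-1 against isotype control, 8 in anti-TGF-β + anti-PD-1 against isotype control, 0 in anti-TGF-β + anti-PD-1 against anti-PD-1 and 476 in FcD + anti-PD-1 against FcD. Leaving out 1 mouse at a time, it ranged from 0 to 2006 in anti-TGF-β + anti-PD-1 against isotype control, 0 to 538 in WT + anti-PD-1 against anti-PD-1, 0 to 1734 in anti-TGF-β + anti-PD-1 against anti-PD-1, 0 to 1707 in WT + anti-PD-1 against WT, 0 to 719 in FcD + anti-PD-1 against FcD and 0 to 1 in the anti-TGF-β by anti-PD-1 interaction.

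With the library set as covariate the log2 difference was -0.0103 for Ifitm1 in anti-TGF-β against isotype control, -0.0057 for Ifitm1 in FcD + anti-PD-1 against isotype control and 0.014 for Ifitm2 in FcD + anti-PD-1 against isotype control. With only the groups compared in the fit the log2 difference was 0.0071 for Ifitm2 in FcD + anti-PD-1 against isotype control and 0.0079 for Ifitm2 in WT + anti-PD-1 against anti-PD-1. Without the filter on low counts the log2 difference was -0.0012 for Ifitm3 in FcD + anti-PD-1 against isotype control. With DESeq2 size factors the log2 difference was 0.0094 for Ifitm2 in WT + anti-PD-1 against anti-PD-1. With the DESeq2 Wald test the log2 difference was 0.0084 for Ifitm2 in WT + anti-PD-1 against anti-PD-1. Without anti-PD-1 mouse 2 and anti-TGF-β + anti-PD-1 mouse 1 the log2 difference was -0.023 for Ifitm2 in the FcD by anti-PD-1 interaction. Without anti-PD-1 mouse 2 and anti-TGF-β + anti-PD-1 mouse 1, Ifitm2 and Ifitm3 passed the threshold in anti-TGF-β + anti-PD-1 against isotype control, with log2 differences of 0.59 and 0.40 and edgeR adjusted p of 0.0150 and 0.0225. Leaving out 1 mouse at a time gave these ranges of log2 differences. In WT against isotype control the range was -0.014 to 0.18 for Ifitm1 and -0.16 to 0.10 for Ifitm6. In FcD against isotype control the range was -0.023 to 0.14 for Ifitm1, -0.18 to 0.015 for Ifitm2 and -0.11 to 0.0065 for Ifitm3. In anti-TGF-β against isotype control the range was -0.13 to 0.098 for Ifitm1 and -0.011 to 0.15 for Ifitm2. In anti-PD-1 against isotype control the range was -0.0050 to 0.14 for Ifitm2 and -0.12 to 0.023 for Ifitm3. In WT + anti-PD-1 against isotype control the range was -0.24 to 0.033 for Ifitm1, -0.095 to 0.12 for Ifitm2 and -0.076 to 0.042 for Ifitm3. In FcD + anti-PD-1 against isotype control the range was -0.21 to 0.15 for Ifitm1, -0.11 to 0.079 for Ifitm2 and -0.077 to 0.058 for Ifitm3. In anti-TGF-β + anti-PD-1 against isotype control the range was 0.41 to 0.60 for Ifitm2 and 0.31 to 0.41 for Ifitm3. In WT + anti-PD-1 against anti-PD-1 the range was -0.14 to 0.064 for Ifitm2 and -0.061 to 0.092 for Ifitm3. In FcD + anti-PD-1 against anti-PD-1 the range was -0.15 to 0.015 for Ifitm2 and -0.032 to 0.12 for Ifitm3. In FcD + anti-PD-1 against FcD the range was -0.27 to 0.094 for Ifitm1, -0.027 to 0.16 for Ifitm2 and -0.016 to 0.11 for Ifitm3. In FcD + anti-PD-1 against WT + anti-PD-1 the range was -0.11 to 0.26 for Ifitm1, -0.14 to 0.091 for Ifitm2, -0.040 to 0.078 for Ifitm3 and -0.044 to 0.23 for Ifitm6. In FcD against WT the range was -0.12 to 0.068 for Ifitm1. In the FcD by anti-PD-1 interaction the range was -0.072 to 0.12 for Ifitm2.

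Counted after seeing the data, 7 of the 33 correlations without Ifitm6 had an adjusted permutation p under 0.05 (adjusted over all 46). The number was 0 for deviations from the group means, 1 within libraries 41 to 60, 9 within libraries 61 to 80, 7 with a prior count of 0.5 and 6 without the 2 farthest mice. The Ifitm6 pairs over these mice are descriptions and are not counted as tests; with them the numbers would be 13 in the reported fit, 0 for deviations from the group means and 3 within libraries 41 to 60. Chosen after seeing the data, leaving out the anti-PD-1 and anti-TGF-β + anti-PD-1 mice gave 6 without and 5 with Ifitm6, and leaving Fn1 out of the monocyte markers turned the r of Ifitm2 to 0.22 and that of Ifitm6 to 0.55. No paired analysis was possible because the mouse numbers follow accession order and pair no samples. The low count of Ifitm6 limits its precision more than that of the other members.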
